A study of Homo sapiens with 6 samples.

Results

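The kinesins are the motor proteins that use ATP to walk along microtubules or to take their ends apart. Their genes were taken as every gene of the deposited table whose symbol is KIF followed by a digit, or KIFC1 to KIFC3, with pseudogenes and antisense genes left out. The rule found 33 of the 16922 genes in the table, of 42 such genes in the annotation. The other 9 (KIF1A, KIF2B, KIF5A, KIF6, KIF17, KIF19, KIF21B, KIF25 and KIF26A) were not analysed here. Each member was placed by its textbook role, which gave 13 mitotic kinesins, 12 transport kinesins and 8 others, the last made up of kinesins of cilia and of microtubule length and KIF2A, which works in the spindle and outside it.

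The study compared the 786-OFOXD1null line with the 786-O line from which it was made, in 3 RNA-seq libraries each. 786-O is a clear cell renal cell carcinoma line that lacks a working VHL tumour suppressor, and the genotype of the derived line is given as FOXD1 null. The sources used here give neither the site of the altered allele nor whether the line is 1 clone, so a difference between the lines cannot be told apart from one between a clone and its parent. Cells of both lines grew on plates to 70% confluency with no treatment, and the RNA extracts are labelled as biological triplicates. Nothing in the labels says that they came from separate cultures, so every p-value measures the spread between libraries, which may be technical.

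The values are normalized counts, that is, reads per gene divided by 1 size factor per library. Reads in genes numbered 34361770 to 37424528 in the FOXD1null libraries and 30982463 to 37843830 in the 786-O libraries. FOXD1 itself, a forkhead transcription factor, had 1277, 1048 and 901 normalized counts in the libraries labelled FOXD1null, against 432, 498 and 480.2 in 786-O. It was higher in every library labelled FOXD1null, a log2 fold change of 1.18 (SE 0.13, adjusted p = 3.9e-04, limma), which goes against the label, so each direction given here is one between libraries as labelled. Whether these reads came from an altered allele cannot be told from counts per gene. Of 8 listed markers of such carcinoma lines 7 were measured (CA9 was not analysed here), and their summed level was 192907 to 219344 in the FOXD1null libraries and 150442 to 156212 in 786-O. VIM made up most of these sums, with 175378, 162857 and 155138 in the FOXD1null libraries and 120114, 115124 and 120950 in 786-O. KRT8 and KRT18 overlapped between the groups and did not pass. EPAS1 had 4611, 8676 and 8340 in the FOXD1null libraries and 4561, 4498 and 4432 in 786-O, and did not pass. NDUFA4L2 was near the floor, at 23.7, 32.3 and 41.8 in the FOXD1null libraries and 23.4, 48.0 and 18.4 in 786-O. The renal lineage markers differed in direction: PAX8 had 8076, 8061 and 7964 in the FOXD1null libraries and 6724, 6518 and 6846 in 786-O, and PAX2 had 895, 1019.6 and 946 in the FOXD1null libraries and 1300.2, 1181 and 1176 in 786-O. Markers of other cell types were low apart from NEFL: 8 of 14 listed markers were in the table, with a summed level of 10153 to 11019 in the FOXD1null libraries and 11876 to 14812 in 786-O, of which NEFL made up most. NEFL was lower (log2 fold change -0.20, adjusted p = 0.029) and RBFOX3 higher (1.21, adjusted p = 0.016, limma for both). MYH6, a cardiac myosin, had 237, 0 and 1.94 in the FOXD1null libraries and 0, 2703 and 27.6 in 786-O, which sets the second 786-O library apart. ALB, TNNI3, FGA and DES were also highest in that library, at 139, 105, 77.1 and 71.6 normalized counts. FOXD1null library 1 stood apart more widely: its counts differed from those of libraries 2 and 3 by a chi-square per degree of freedom of 49.2 and 54.0, against 2.83 between libraries 2 and 3 and 2.47 to 5.38 among the 786-O libraries.

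Dividing cells build a spindle of microtubules and then a midzone between the separating chromosomes. Mitotic kinesins slide, cross-link and shorten the microtubules of these structures, and their RNAs rise in G2 and mitosis together with those of other cell division genes. Transport kinesins carry vesicles, organelles and protein complexes through the cytoplasm at every stage of the cycle, often through light chains or adaptor proteins, while dynein pulls most cargo the other way. A few kinesins act in the primary cilium, an organelle that kidney tubule cells carry. The study looked for genes that tie FOXD1 to passage through G2 and mitosis, so the mitotic kinesins are set against the transport kinesins here.

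Of the 33 kinesins, all of which passed the filter of a mean of at least 10 normalized counts, in the libraries labelled FOXD1null 5 were higher, 8 were lower and the remaining 20 did not pass (limma, adjusted p at or under 0.05 over all 16901 genes tested). These 13 are 39.4% of the family, against 33.4% of all genes tested, 16.3% higher and 17.1% lower. Among the 6581 genes with a mean of at least 1000 normalized counts, 37.3% passed, so the share of kinesins called lay near the background. The changes were small. No kinesin reached a log2 fold change of 1 in either direction, a size that 9.53% of all genes tested reached, and the median size of the change was 0.20 on the log2 scale among kinesins and 0.26 among all genes. Most of the 16901 genes have a mean under 1000, unlike most kinesins, and sizes were not compared among genes of the same level. The median change was -0.11 for the kinesins and -0.01 for all genes. The values of the groups did not overlap for 20 of the 33 members (60.6%), against 49.0% of all genes tested.

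**Figure D1:**
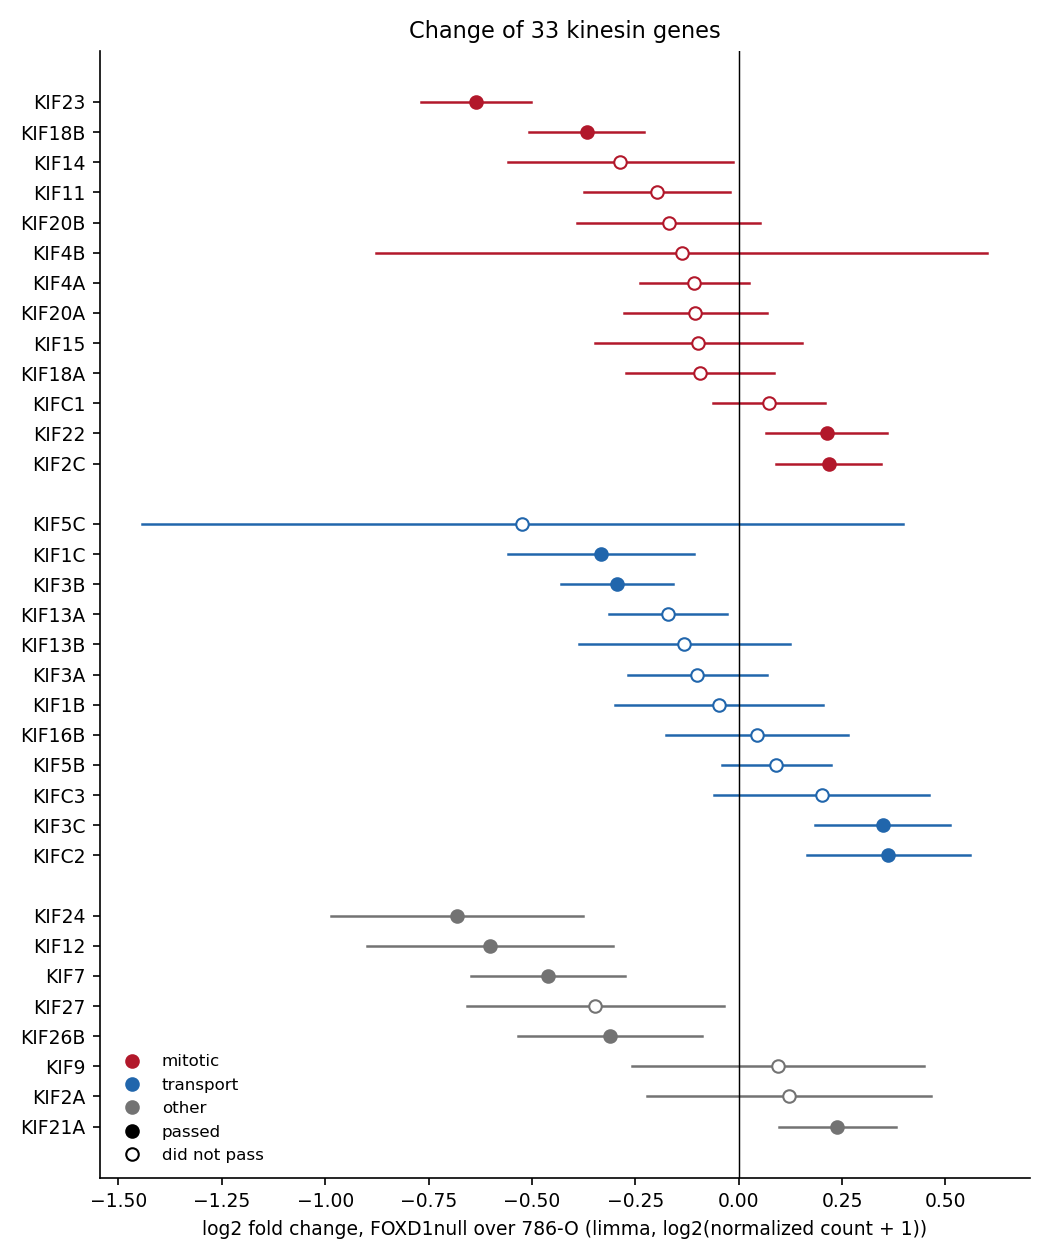
Log2 fold change of each of the 33 kinesins in the libraries labelled FOXD1null over 786-O (x axis, limma on log2 of the normalized count plus 1), grouped as mitotic, transport and other and ordered within each group. Points are estimates, bars are 95% confidence intervals and filled points passed; each of the 3 groups holds members on both sides of 0, with estimates from -0.68 for KIF24 to 0.36 for KIFC2.

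As deposited, mitotic and transport kinesins gave the same counts in each direction, but with equal library totals they did not. In bulk RNA, a change in the share of cells in mitosis and a change in RNA per cell cannot be told apart. Per the study, earlier work found slower passage through G2 and mitosis without FOXD1, with more cells at G2. Among the mitotic kinesins, 2 were higher (KIF2C and KIF22), 2 were lower (KIF23 and KIF18B) and 9 of 13 did not pass, with 30.8% called and a median of -0.11. Among the transport kinesins, 2 were higher (KIFC2 and KIF3C), 2 were lower (KIF1C and KIF3B) and 8 of 12 did not pass, with 33.3% called and a median of -0.07. The other kinesins had 1 higher member (KIF21A), 4 lower members (KIF24, KIF12, KIF7 and KIF26B) and 3 that did not pass, with a median of -0.33. The difference between the lists was not tested. With every library scaled to the same total, which lowered the median of all genes by 0.09 on the log2 scale, 2 kinesins were higher and 13 lower. By class, that scaling gave 0 higher and 5 lower mitotic kinesins, 2 higher and 3 lower transport kinesins and 0 higher and 5 lower others. Over all genes that scaling gave 2040 higher (12.1%) and 3873 lower (22.9%), 35.0% in all, against 2751 and 2888 as deposited. On the recovered reads edgeR called the same 13 kinesins, with 33.6% of all genes called (16.0% higher and 17.6% lower), and DESeq2 called those and KIF13A, with 34.6% (17.3% in each direction). Without FOXD1null library 1, 21 kinesins passed (8 higher and 13 lower), and so did 55.0% of all genes tested (27.4% higher and 27.6% lower), with 2 higher and 6 lower among the mitotic kinesins and 4 higher and 3 lower among the transport kinesins.

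The largest fall among the mitotic kinesins was that of KIF23 (ENSG00000137807; hg38 chr15:69414246-69448427, plus strand), the motor that joins RACGAP1 in centralspindlin and bundles the midzone for cytokinesis. It had 3828, 3815 and 3834 normalized counts in the FOXD1null libraries, against 5920.4, 5768 and 6140.3 in 786-O. The 3 FOXD1null values lay close together (3825 ± 9.86, against 5943 ± 187 in 786-O, SD) and every one was below every 786-O value. Its mean fell by 35.6%, a log2 fold change of -0.63 (95% interval -0.77 to -0.50, adjusted p = 1.7e-04, limma). It kept its direction and passed under all 14 alternatives, with a log2 fold change of -0.73 to -0.61.

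KIF18B (chr17:44924709-44947773, minus strand), which shortens astral microtubules at their plus ends, had 2872, 2875 and 2881 normalized counts in the FOXD1null libraries and 3871, 3676 and 3589 in 786-O. The groups did not overlap, and the FOXD1null libraries again lay close together. Its log2 fold change was -0.37 (95% interval -0.51 to -0.23, adjusted p = 0.0025, limma), and it too passed under all 14 alternatives. Its close relative KIF18A, which damps the movements of chromosomes on the spindle, had 1278, 1431 and 1466 in the FOXD1null libraries and 1414, 1506 and 1528 in 786-O and did not pass (-0.09, 95% interval -0.27 to 0.09).

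The mitotic kinesins that were higher both act on chromosomes, as do KIF4A (-0.11) and KIF18A (-0.09), which did not pass. KIF2C (chr1:44739818-44767767, plus strand), which takes apart microtubules wrongly attached to kinetochores, had 6573, 6754 and 6549 normalized counts in the FOXD1null libraries, against 5674, 5644 and 5779 in 786-O. KIF22 (chr16:29790727-29805385, plus strand), which pushes chromosome arms away from the spindle poles, had 5607, 5133 and 5167 in the FOXD1null libraries and 4541, 4464 and 4716 in 786-O. Neither gene's groups overlapped. The log2 fold change was 0.22 for KIF2C (adjusted p = 0.018) and 0.21 for KIF22 (adjusted p = 0.034, limma for both). These calls were not firm. With equal library totals neither passed (0.13 and 0.12), and leaving out any single 786-O library or FOXD1null library 2 ended both calls, as leaving out FOXD1null library 3 did for KIF22. With a library left out in this way the log2 fold change was 0.20 to 0.23 for KIF2C and 0.20 to 0.24 for KIF22. In those fits 3621 to 4571 of all genes passed, against 5639 over all 6 libraries. Over all 14 alternatives the adjusted p ran over 8.7e-05 to 0.10 for KIF2C and 0.0015 to 0.16 for KIF22 (limma, edgeR and DESeq2).

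To show what the promoters of these mitotic kinesins share, the RefSeq sequences around the gene starts of that annotation (GRCh38.p14, 250 bases before to 50 after) are given for the pair that was lower, KIF23 and KIF18B, and for the pair that was higher, KIF2C and KIF22. Cell cycle genes of G2 and mitosis are often read from promoters with the cell cycle homology region, TTTGAA, and with CCAAT boxes. Capitals mark TTTGAA and CCAAT, or their reverse complements TTCAAA and ATTGG, which do not overlap each other here. The sequences run 5′ to 3′ along the gene from chr15:69414099-69414398 on the plus strand, chr17:44947724-44948023 on the minus strand, chr1:44739587-44739886 on the plus strand and chr16:29790501-29790800 on the plus strand.
KIF23: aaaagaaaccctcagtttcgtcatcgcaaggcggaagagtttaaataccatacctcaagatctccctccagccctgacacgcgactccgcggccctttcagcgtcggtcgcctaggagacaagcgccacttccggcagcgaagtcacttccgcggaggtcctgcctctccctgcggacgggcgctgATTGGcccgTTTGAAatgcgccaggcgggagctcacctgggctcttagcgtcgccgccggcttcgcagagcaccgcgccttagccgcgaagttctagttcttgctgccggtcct
KIF18B: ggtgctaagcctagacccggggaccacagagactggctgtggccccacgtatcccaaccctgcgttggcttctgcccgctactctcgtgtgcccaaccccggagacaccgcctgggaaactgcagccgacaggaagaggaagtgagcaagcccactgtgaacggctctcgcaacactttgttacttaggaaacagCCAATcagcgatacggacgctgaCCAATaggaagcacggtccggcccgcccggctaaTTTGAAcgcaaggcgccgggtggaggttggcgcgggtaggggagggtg
KIF2C: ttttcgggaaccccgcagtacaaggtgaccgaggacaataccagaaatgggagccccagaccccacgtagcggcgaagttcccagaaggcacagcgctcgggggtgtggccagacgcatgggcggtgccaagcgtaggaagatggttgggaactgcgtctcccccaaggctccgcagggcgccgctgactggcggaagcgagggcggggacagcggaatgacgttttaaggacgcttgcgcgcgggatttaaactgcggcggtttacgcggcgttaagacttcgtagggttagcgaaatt
KIF22: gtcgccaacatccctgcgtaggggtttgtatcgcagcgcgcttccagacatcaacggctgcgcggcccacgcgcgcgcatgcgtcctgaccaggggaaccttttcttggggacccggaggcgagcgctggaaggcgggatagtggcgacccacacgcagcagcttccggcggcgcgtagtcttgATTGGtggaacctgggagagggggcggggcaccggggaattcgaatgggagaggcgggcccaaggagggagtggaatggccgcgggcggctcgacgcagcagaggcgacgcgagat

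KIF23 and KIF18B carried TTTGAA in this window, 55 bases before and 3 bases after the gene start, with an ATTGG or CCAAT before it. KIF22 carried ATTGG alone and KIF2C neither motif. Only the exact letters were searched, so near matches were not counted. Such near matches include ttcgaa in the KIF22 window and tttaaa in the KIF2C and KIF23 windows. A promoter was found for 28 of the 33 members and for 11416 of the genes tested. On either strand, TTTGAA lay in 10 of 13 mitotic kinesins (76.9%), in 1 of 9 transport kinesins (KIF5B), in 0 of 6 others and in 9.74% of all promoters of this length. CCAAT lay in 11 of 13 mitotic kinesins, 3 of 9 transport kinesins, 2 of 6 others and 36.6% of all. The forkhead motif GTAAACA lay in 0 of the 28 and in 2.44% of all. A match only says that these letters are in the window. Mitotic kinesins with TTTGAA included the 2 lower members and 8 that did not pass, and neither of the 2 higher ones.

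Of the 9 mitotic kinesins that did not pass, 8 had log2 fold changes below 0 and KIFC1 one above 0. KIF11, the motor that pushes the spindle poles apart, had 5318, 6173 and 6281 normalized counts in the FOXD1null libraries and 6631, 6795 and 6898 in 786-O. KIF14, which works in cytokinesis, had 2431, 3196 and 3377 in the FOXD1null libraries and 3488, 3746 and 3643 in 786-O. In both genes the groups did not overlap but FOXD1null library 1 lay well below libraries 2 and 3. Their log2 fold changes were -0.20 (adjusted p = 0.084) and -0.29 (adjusted p = 0.10, limma). Without that library both passed with smaller changes, -0.12 and -0.14, and with equal library totals both passed with larger ones, -0.29 and -0.38; over all alternatives the adjusted p ran over 0.011 to 0.24 and 0.013 to 0.24.

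KIF20B, a cytokinesis kinesin, had 6676, 5448 and 5685 normalized counts in the FOXD1null libraries and 6055, 7173 and 6774 in 786-O, and here FOXD1null library 1 was the highest of its group. KIF20A, which carries the chromosomal passenger complex to the midzone, had 4776, 5593 and 5459 in the FOXD1null libraries and 5670.4, 5490.3 and 5825 in 786-O. Both pairs of groups overlapped, with log2 fold changes of -0.17 (95% interval -0.39 to 0.05) and -0.10 (-0.28 to 0.07). KIF20B passed without FOXD1null library 1 (-0.26) and KIF20A passed under no alternative. KIF15, which can keep spindle poles apart when KIF11 fails, had 1137, 1501 and 1418 in the FOXD1null libraries and 1358, 1506 and 1452 in 786-O. Its log2 fold change of -0.10 (95% interval -0.35 to 0.15) turned to 0.021 without FOXD1null library 1.

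KIFC1, a minus end motor that focuses spindle poles and clusters extra centrosomes, had 4746, 4771 and 4538 normalized counts in the FOXD1null libraries and 4558, 4423 and 4376 in 786-O. The groups overlapped, and the log2 fold change of 0.07 (95% interval -0.06 to 0.21) turned to -0.018 with equal library totals. KIF4A (chrX:70290104-70420886, plus strand), a chromatin-bound motor that sets the length of the midzone with PRC1, had 4599, 4453 and 4401 in the FOXD1null libraries and 4838, 4748 and 4912 in 786-O. Every FOXD1null value was below every 786-O value, yet the difference of -0.11 on the log2 scale did not pass (adjusted p = 0.19, limma; over the alternatives 0.010 to 0.43, passing with equal library totals and without FOXD1null library 1). KIF4B, a near-identical copy on chromosome 5, had 14.0, 9.09 and 10.7 in the FOXD1null libraries and 12.3, 12.7 and 12 in 786-O. Reads of the copies may be split or dropped by the counting, so both values are uncertain.

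Of 15 listed proteins of the spindle and midzone, 2 were higher, 1 was lower and 12 did not pass, with a median of 0.00. The 20% called stands against 33.4% of all genes tested. With equal library totals 2 were higher and 4 lower, where 35.0% of all genes passed. HMMR, a spindle assembly factor, had 5885, 6351 and 6528 normalized counts in the FOXD1null libraries and 4758, 5265 and 4907 in 786-O (log2 fold change 0.33, adjusted p = 0.0078, limma). CEP55, which acts in the last cut between daughter cells, had 8927, 9025 and 8905 in the FOXD1null libraries and 7140.2, 7295 and 7437 in 786-O (0.30, adjusted p = 0.0046, limma). NUSAP1, which bundles spindle microtubules, was the lower one at -0.24, a call that ended when any single 786-O library was left out. RACGAP1, the other subunit of centralspindlin, did not follow KIF23: it had 6066, 6214 and 6338 in the FOXD1null libraries and 6157, 6155 and 6249 in 786-O, a log2 fold change of 0.00 (95% interval -0.12 to 0.13) whose sign changed with the tool. The ratio of KIF23 to RACGAP1 within a library was 0.631, 0.614 and 0.605 in the FOXD1null libraries and 0.962, 0.937 and 0.983 in 786-O, without overlap. PRC1 changed by -0.10 and TPX2, which helps KIF11 and KIF15 onto the spindle, by 0.15, and neither passed.

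**Figure D2:**
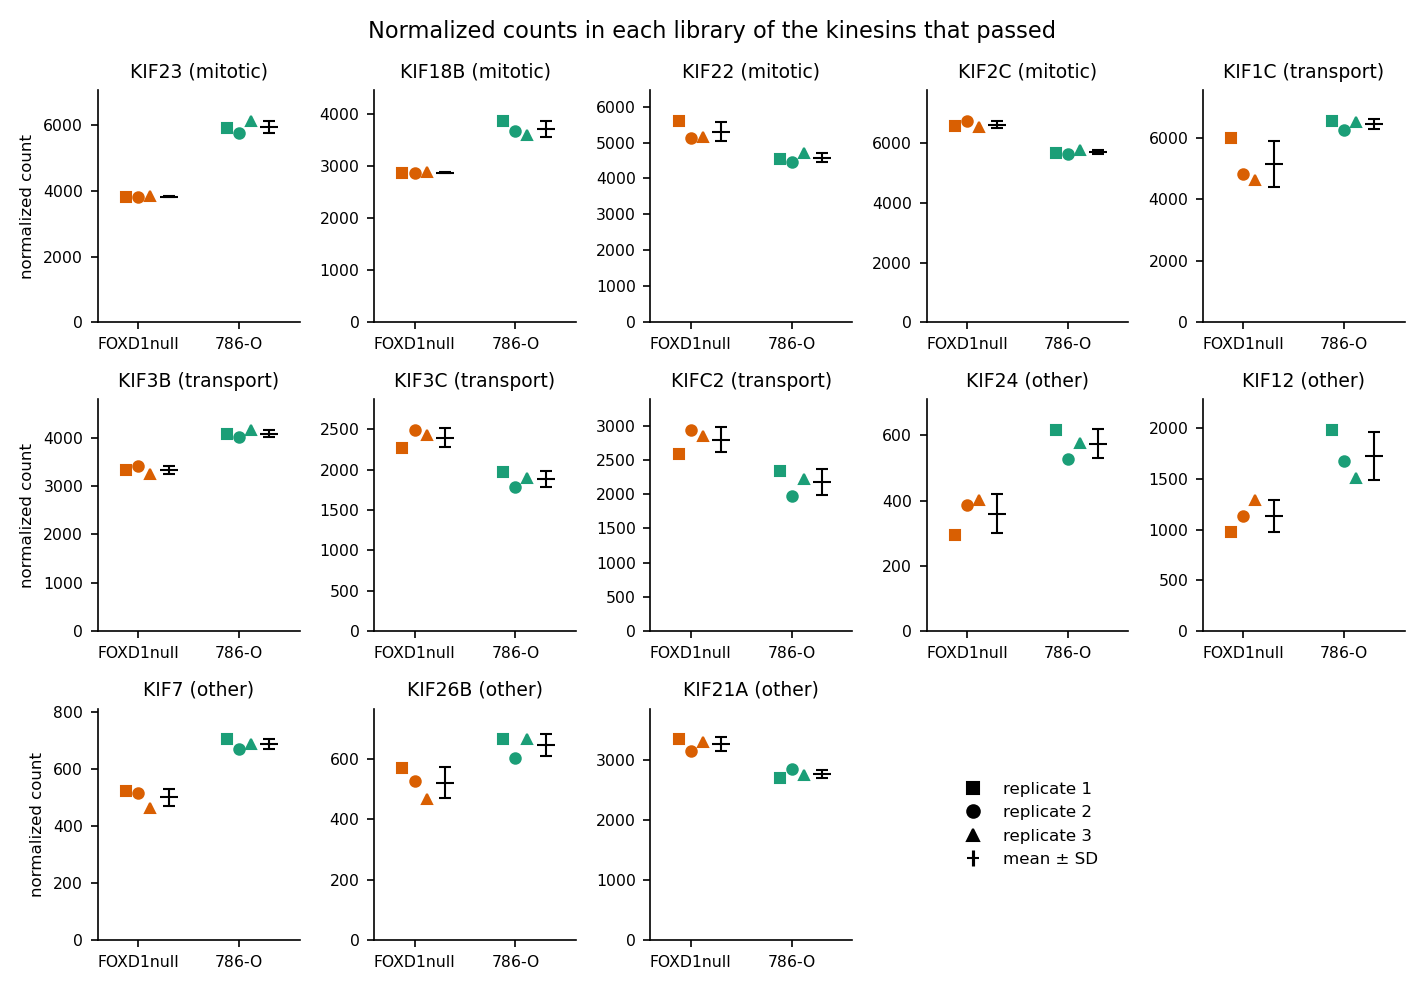
Normalized count (y axes, from 0) in each of 6 libraries for the 13 kinesins that passed, with the 3 libraries labelled FOXD1null left and the 3 786-O libraries right in each panel. Symbols mark the replicate number, which does not pair the lines, and bars are the mean ± SD; in every panel the values of the groups do not overlap, and in KIF1C and KIF24 the first FOXD1null library lies apart from the other two.

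Among the transport kinesins, alternative subunits of the KIF3 motors moved in opposite directions. KIF3A and KIF3B are the motor subunits that join KIFAP3 for transport in cilia and along microtubules, and KIF3C can take the place of KIF3B beside KIF3A. KIF3B (chr20:32277651-32335011, plus strand) had 3329.6, 3419.5 and 3242 normalized counts in the FOXD1null libraries, against 4081, 4005 and 4164 in 786-O. KIF3C (chr2:25926598-25982749, minus strand) had 2273, 2495 and 2427 in the FOXD1null libraries, against 1973, 1779.6 and 1901 in 786-O. Neither gene's groups overlapped. KIF3B fell by 0.29 on the log2 scale (95% interval -0.43 to -0.16, adjusted p = 0.0062, limma) and KIF3C rose by 0.35 (0.18 to 0.51, adjusted p = 0.0068, limma). Both passed under all 14 alternatives, equal library totals included.

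The ratio of KIF3C to KIF3B reads was 0.683, 0.730 and 0.749 in the FOXD1null libraries and 0.483, 0.444 and 0.456 in 786-O, so KIF3B remained the more counted of the pair in every library. KIF3A had 739, 754 and 762 normalized counts in the FOXD1null libraries and 792, 851 and 775 in 786-O, which did not pass (-0.10, 95% interval -0.27 to 0.07). KIFAP3, the subunit that binds cargo, rose with 904, 1138 and 1035 in the FOXD1null libraries, against 779, 785 and 834 in 786-O (log2 fold change 0.35, adjusted p = 0.023, limma), a call that ended when any single library other than FOXD1null 1 was left out and with equal library totals (adjusted p = 0.067). Of these 4 genes, KIF3C and KIFAP3 rose, KIF3B fell and KIF3A did not pass.

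KIFC2 (chr8:144466043-144474202, plus strand), a motor with its head at the C-terminal end, studied in neurons of the mouse, had 2590.2, 2939 and 2851 normalized counts in the FOXD1null libraries, against 2340.3, 1972 and 2215 in 786-O. KIF1C (chr17:4997950-5028401, plus strand), which carries vesicles with integrins and dense cores, had 5988, 4833 and 4621 in the FOXD1null libraries and 6554, 6267 and 6506 in 786-O. The groups did not overlap in either gene. The log2 fold change was 0.36 for KIFC2 (adjusted p = 0.013) and -0.33 for KIF1C (adjusted p = 0.031, limma for both). KIFC2 lost its call without 786-O library 2 or FOXD1null library 2, and KIF1C when any single library other than FOXD1null 1 was left out, with an adjusted p of 2.0e-05 to 0.055 and 8.8e-08 to 0.11 over the alternatives. Without FOXD1null library 1, which was the highest of its group in KIF1C, the fall of that gene was -0.45.

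KIF5B (chr10:32009015-32056425, minus strand), the heavy chain of conventional kinesin in most tissues, had the highest count of any member, 13459.6, 13847 and 14176 in the FOXD1null libraries and 12680.1, 13096 and 13177 in 786-O. The groups did not overlap but the log2 fold change of 0.09 (95% interval -0.04 to 0.22, adjusted p = 0.27, limma) did not pass. With equal library totals it was -0.00077, and without FOXD1null library 1 it was 0.11 and passed (adjusted p = 0.014, limma). Its neuronal relative KIF5C was near the floor at 12.9, 38.4 and 20.4 in the FOXD1null libraries and 23.4, 32.6 and 41.4 in 786-O. No change of KIF5C was detectable at this depth (-0.52, 95% interval -1.44 to 0.40).

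KIF13A, which moves recycling endosomes, had 2984, 3241 and 3050.3 normalized counts in the FOXD1null libraries and 3489.8, 3427 and 3521 in 786-O, without overlap. Its log2 fold change of -0.17 narrowly did not pass in limma (adjusted p = 0.066) and passed in DESeq2, with equal library totals and without FOXD1null library 1, over a range of 0.0081 to 0.22. KIF1B, a carrier of mitochondria and vesicles, had 3123, 4146 and 4119.5 in the FOXD1null libraries and 3820.1, 3967 and 3891 in 786-O. KIFC3, a minus end motor of epithelial cells, had 2297, 1838 and 1661 in the FOXD1null libraries and 1667, 1669 and 1659 in 786-O. In both genes the groups overlapped and FOXD1null library 1 stood alone, the lowest of its group in KIF1B and the highest in KIFC3. KIF1B did not pass (-0.05, turning to 0.09 without that library) and neither did KIFC3 (0.20). KIF13B (-0.13, 95% interval -0.39 to 0.12) and KIF16B, which moves early endosomes (0.04, -0.18 to 0.26), did not pass either. KIF16B turned to -0.047 with equal library totals and to -0.015 without FOXD1null library 2, and without FOXD1null library 1 it was 0.14 and passed (adjusted p = 0.042, limma).

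Of 22 listed partners of transport kinesins, 6 were higher, 2 were lower and 14 did not pass, with a median of 0.09. The 36.4% called lay near the 33.4% of all genes tested, and with equal library totals 2 were higher and 3 lower, where 35.0% of all genes passed. MAPK8IP2, a scaffold that binds kinesin light chains, had 192, 137 and 116 normalized counts in the FOXD1null libraries, against 63.6, 83.4 and 47.8 in 786-O (log2 fold change 1.18, adjusted p = 0.0076, limma). Its relative MAPK8IP1 went the other way, with 206, 134 and 136 in the FOXD1null libraries, against 300.2, 277 and 294 in 786-O (-0.90, adjusted p = 0.0048, limma). MAP7, which brings KIF5B onto microtubules, had 396, 416 and 453 in the FOXD1null libraries, against 801, 773 and 792 in 786-O (-0.90, adjusted p = 1.7e-04, limma). These 3 changes were each larger than that of any kinesin. Of the light chains that pair with KIF5B, KLC3 (0.51) and KLC2 (0.30) were higher, both without a call under equal library totals or without any single 786-O library or FOXD1null library 2, and KLC1 (0.00) and KLC4 (-0.04) did not pass.

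Of 27 measured genes of dynein, dynactin and their adaptors, 5 were higher, 1 was lower and 21 did not pass, with a median of 0.04. The 22.2% called stands against 33.4% of all genes tested. With equal library totals 3 were higher and 2 lower, with a list median of -0.05, where 35.0% of all genes passed. The rises were led by DYNC1I1 (0.46), an intermediate chain, and by the light chains DYNLRB1 (0.32) and DYNLT3 (0.31), of which DYNLRB1 did not pass with equal library totals or when any single 786-O library was left out. PAFAH1B1, the dynein regulator LIS1, was the lower one, with 4060.4, 3685 and 3756 normalized counts in the FOXD1null libraries, against 6021, 5910.0 and 6183 in 786-O (-0.66, adjusted p = 2.3e-04, limma). It lies on chromosome 17, as KIF1C and KIF18B do. Without FOXD1null library 1, 11 of the 15 mitotic partners, 12 of the 22 transport partners and 16 of the 27 dynein genes passed, in a comparison where 55.0% of all genes did.

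Of the 8 kinesins outside both classes, 5 passed (62.5%, against 33.4% of all genes tested), with the largest falls in KIF24, KIF12 and KIF7. KIF24 (chr9:34252380-34329268, minus strand), a centriole kinesin that holds back the growth of cilia, had 293, 385 and 403 normalized counts in the FOXD1null libraries, against 617, 528 and 577 in 786-O. KIF12 (chr9:114086126-114099292, minus strand), a kinesin of kidney and liver epithelia, had 978, 1135 and 1293 in the FOXD1null libraries, against 1982, 1676 and 1509.5 in 786-O. KIF7 (chr15:89608789-89663086, minus strand), which works at the tip of the cilium in Hedgehog signalling, had 522, 514 and 465 in the FOXD1null libraries, against 706, 669 and 689 in 786-O. In none of the 3 genes did the groups overlap, though KIF12 varied widely within both lines. The log2 fold changes were -0.68 (95% interval -0.99 to -0.38, adjusted p = 0.0056), -0.60 (-0.90 to -0.31, adjusted p = 0.0084) and -0.46 (-0.65 to -0.27, adjusted p = 0.0035, limma for each). Each passed under all 14 alternatives.

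KIF26B (chr1:245154985-245709432, plus strand), needed for kidney development in the mouse, had 569, 525 and 467 normalized counts in the FOXD1null libraries, against 665, 604 and 666 in 786-O. KIF21A (chr12:39293228-39443390, minus strand), which slows microtubule growth at the cell edge, had 3361, 3149 and 3313 in the FOXD1null libraries, against 2712, 2853 and 2762 in 786-O. The groups did not overlap in either gene, with log2 fold changes of -0.31 for KIF26B (adjusted p = 0.039) and 0.24 for KIF21A (adjusted p = 0.019, limma for both). KIF26B lost its call when any single library other than FOXD1null 1 was left out, and KIF21A when any single 786-O library or FOXD1null library 3 was left out and with equal library totals; the adjusted p ran over 5.0e-04 to 0.14 and 5.0e-04 to 0.10. KIF27, a close relative of KIF7, had 141, 179.9 and 177 in the FOXD1null libraries and 199, 235 and 199 in 786-O, without overlap, and did not pass (-0.35, adjusted p = 0.084, limma) except with equal library totals (-0.44). KIF9, a kinesin of motile cilia, did not pass (0.10, 95% interval -0.26 to 0.45) and turned to -0.04 without FOXD1null library 1.

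KIF2A, which takes microtubules apart at spindle poles and in neurons, had 1264, 1927 and 1870.4 normalized counts in the FOXD1null libraries and 1506, 1530.3 and 1535 in 786-O. FOXD1null library 1 lay below all 786-O values and libraries 2 and 3 above them. The log2 fold change was 0.12 (95% interval -0.22 to 0.46) over all 6 libraries and 0.32 without library 1, where it passed; over the alternatives its adjusted p ran over 2.8e-05 to 0.96 (limma, edgeR and DESeq2).

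Levels were compared between genes as normalized counts per kb of exon, taking all annotated exons of a gene together. KIF5B had the highest level in both lines, 2357 ± 61.2 per kb in the FOXD1null libraries and 2214 ± 45.4 in 786-O (SD, n = 3 each). KIF2C followed with 1817 ± 30.7 per kb in the FOXD1null libraries and 1563 ± 19.4 in 786-O. Next came KIFC1, with 1546 ± 42.2 per kb in the FOXD1null libraries and 1469 ± 31.1 in 786-O, and KIF20A, with 1369.7 ± 114 in the FOXD1null libraries and 1469.8 ± 43.5 in 786-O, whose levels in 786-O did not differ beyond their spread. In each line 8 of the 10 highest kinesins were mitotic. KIF23 ranked 12 of 33 in the FOXD1null libraries and 8 in 786-O, with 582 ± 1.5 per kb and 904 ± 28.5 per kb, and KIF22 ranked 8 and 12. The ranks depend on the length used. Per kb of the longest annotated transcript, KIF23 ranked 5 and KIF22 ranked 9 in 786-O, where 9 of the 10 highest were mitotic. The cilium kinesins KIF7, KIF24 and KIF27 were low, at 91.9 ± 5.64, 55.6 ± 9.09 and 21.4 ± 2.78 per kb in the FOXD1null libraries. KIF4B and KIF5C were lowest, at 2.57 ± 0.572 and 0.721 ± 0.395 per kb. By the longest transcript KIF5C ranked 32 and KIF4B ranked 33 in 786-O.

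**Figure D3:**
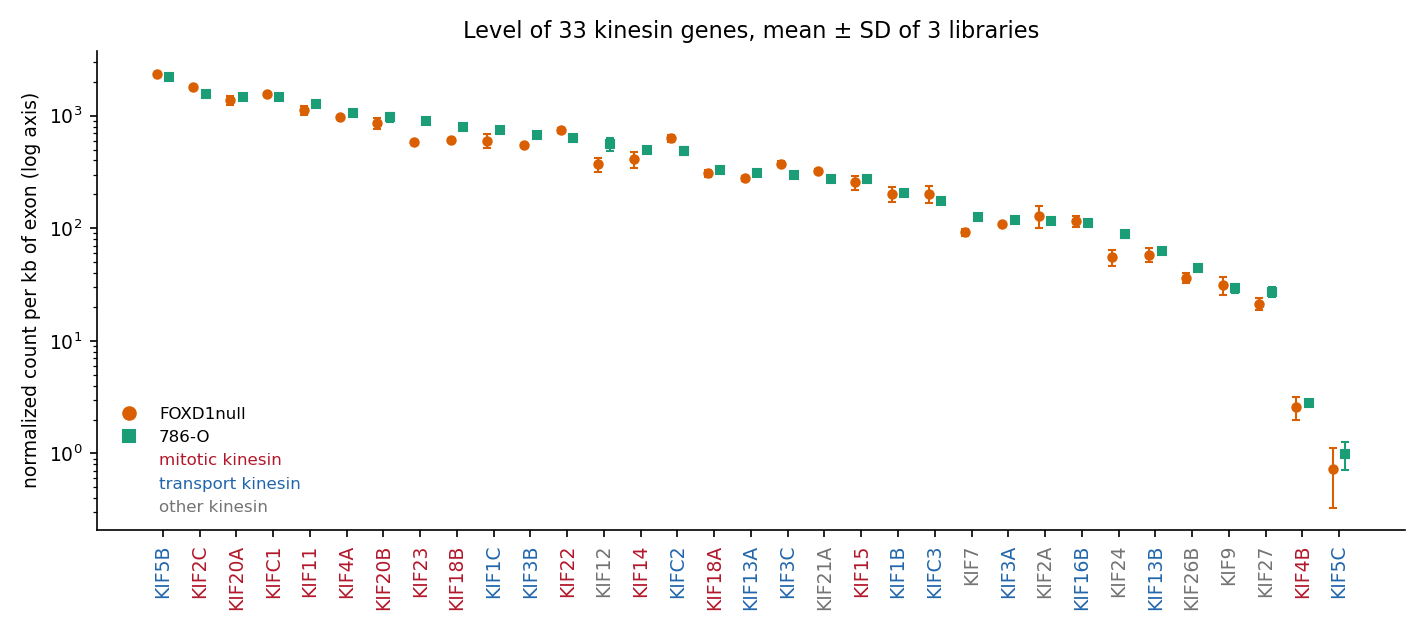
Normalized count per kb of exon (y axis, log scale) of the 33 kinesins, ordered by their level in 786-O, as the mean ± SD of 3 libraries labelled FOXD1null (left, circles) and 3 libraries of 786-O (right, squares). Most mitotic kinesins lie to the left with KIF5B, and KIF4B and KIF5C lie far below the rest, at 2.57 and 0.721 per kb in the FOXD1null libraries.

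Summed over their members, mitotic kinesins had 49856, 51152 and 51068 normalized counts in the FOXD1null libraries and 54032, 54952 and 55645 in 786-O. Transport kinesins had 38109, 39224 and 38551 in the FOXD1null libraries and 38980.0, 38628 and 39418 in 786-O. The mitotic sums did not overlap between the lines, at a ratio of means of 0.924, and the transport sums did, at 0.990. Within each library, where scaling cancels, mitotic over transport reads was 1.31, 1.30 and 1.32 in the FOXD1null libraries and 1.39, 1.42 and 1.41 in 786-O. The difference rested in part on single genes. Without KIF23 the ratio was 1.21, 1.21 and 1.23 in the FOXD1null libraries and 1.23, 1.27 and 1.26 in 786-O, still without overlap but by a narrow margin. KIF5B made up 35.3, 35.3 and 36.8% of transport kinesin reads in the FOXD1null libraries and 32.5, 33.9 and 33.4% in 786-O. Without KIF5B the remaining transport kinesins summed to 24649, 25377 and 24374 in the FOXD1null libraries and 26299.9, 25531 and 26241 in 786-O. Mitotic reads over these were 2.02, 2.02 and 2.10 in the FOXD1null libraries and 2.05, 2.15 and 2.12 in 786-O, which overlapped. No test was run on these sums and ratios, since the members were chosen with results known and an exact permutation test of 3 against 3 cannot go below p = 0.1.

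Several kinesins lay among neighbours that moved the same way. The median log2 fold change of the 184 tested genes that start within 5 Mb of KIF1C was -0.56, of which 118 were lower and 4 higher, and that gene's own change was -0.33. Around KIF18B, farther along chromosome 17, the median over 209 genes was -0.42, with 104 lower and 10 higher, beside -0.37 for KIF18B. Both kinesins changed by less than the median gene around them. KIF4A on the X chromosome had -0.11 beside a median of -0.25 over 45 neighbours, 15 lower and 0 higher. KIF23 fell by 0.63 beside a median of -0.24 over 76 neighbours, or -0.10 over the 24 within 2 Mb. KIF24 changed by -0.68 beside a median of -0.16 over 85 neighbours, 30 lower and 4 higher. KIF12 (-0.60 beside -0.14) and KIF7 (-0.46 beside -0.11) also fell by more than the median gene around them. KIF3B (-0.29 beside 0.07) and KIF3C (0.35 beside -0.06) each moved against the median of its neighbours. KIF2C and KIF22, both higher, lay among neighbours with a median of 0.13. The part of these regional shifts in the kinesin changes was not tested.

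**Figure D4:**
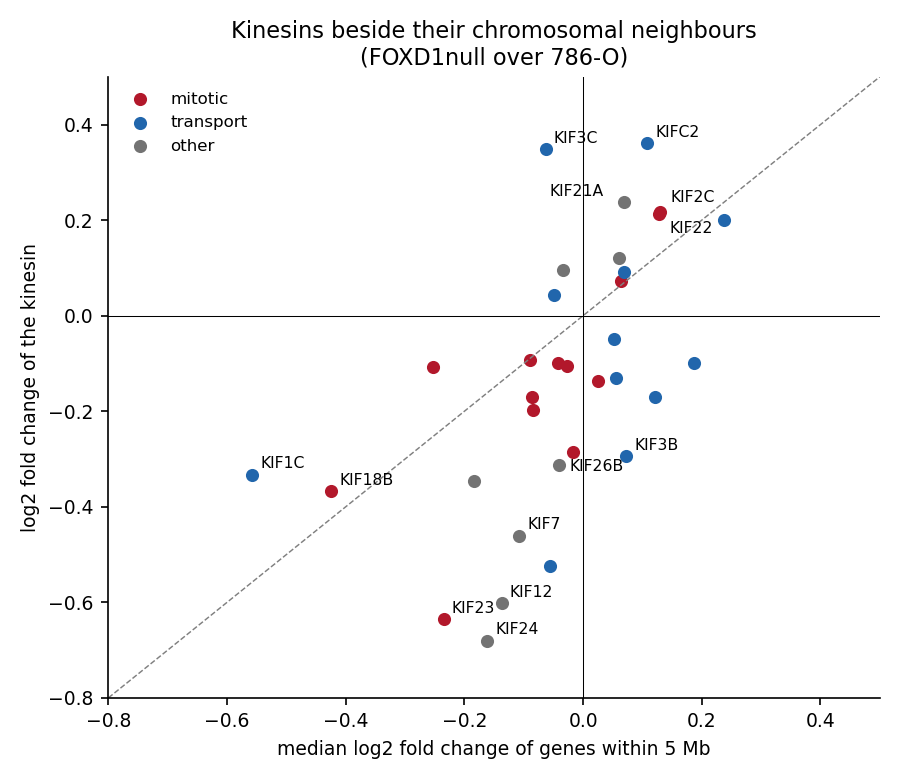
Log2 fold change of each kinesin (y axis) against the median log2 fold change of the other tested genes that start within 5 Mb (x axis), both for the libraries labelled FOXD1null over 786-O. Each point is 1 of 33 kinesins, coloured by class, the members that passed are named and the dashed line marks equal values; KIF1C and KIF18B lie at neighbour medians of -0.56 and -0.42, left of every other member.

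The spread within the FOXD1null libraries ran with transcript length. Library 1 was the lowest of its group for 19 of the 33 kinesins, the highest for 10 and between the others for 4. Over all 16901 genes tested, library 1 was the lowest for 7083, the highest for 7533 and between for 2285. Its gap to the mean of libraries 2 and 3, over all protein-coding genes, had a median of 0.24 on the log2 scale where the longest annotated transcript was under 2.5 kb and of -0.28 where it was 7.5 kb or more, with a Spearman correlation with length of -0.43 across 12908 genes. Genes are not independent replicates and these share their libraries, so no p is given. Over the 33 kinesins the correlation was -0.32. KIF2A (-0.59), KIF14 (-0.43) and KIF1B (-0.40), all with long transcripts, were far lower in library 1, while KIF1C (0.34), also long, was higher. KIF23 (0.0012) and KIF18B (-0.0033) had almost no gap. The part of transcript length in the kinesin changes was not tested.

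**Figure D5:**
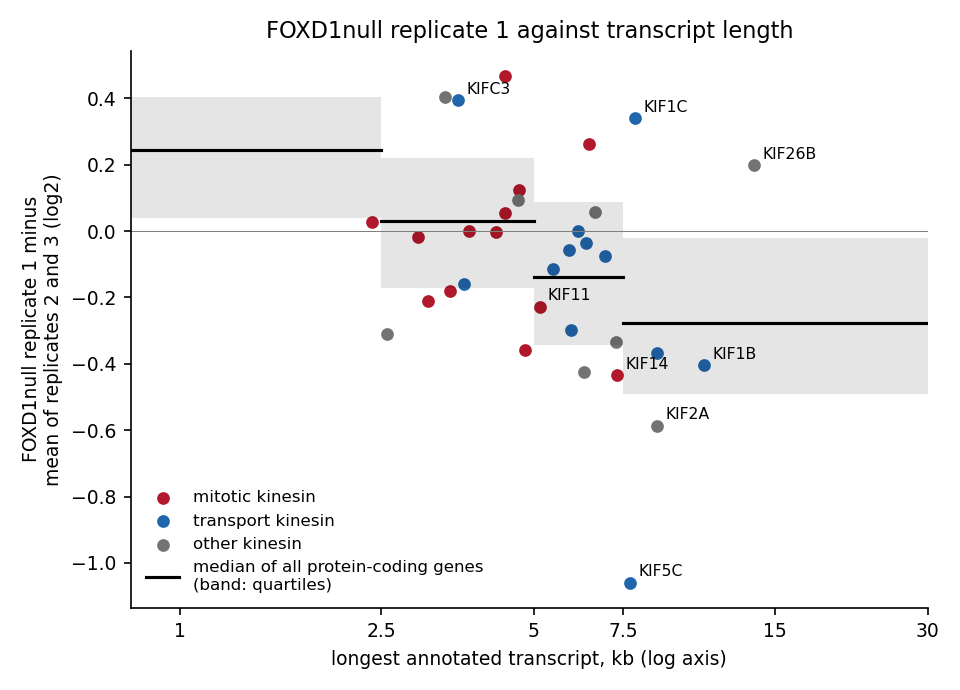
Gap of FOXD1null library 1 to the mean of libraries 2 and 3 (y axis, log2 of the normalized count plus 1) against the longest annotated transcript in kb (x axis, log scale) for the 33 kinesins, coloured by class. Black lines are the medians and bands the quartiles of all protein-coding genes in 4 classes of length, with medians of 0.24, 0.03, -0.14 and -0.28 from short to long.

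Some counts may hold reads of other genes, since the sources used here do not say whether strand was used in counting. In the annotation, exons of KIF2A overlap those of DIMT1 on the opposite strand over 2446 bases, 18.7% of its exon length, and those of KIFC2 overlap FOXH1 over 791 bases (17.8%). KIF9 overlaps its antisense gene KIF9-AS1 over 870 bases (14.8%) and KIFC1 overlaps the pseudogene RPL12P1 over 424 bases (14.0%). KIF7 overlaps TICRR over 589 bases (10.8%) and KIF22 overlaps a noncoding gene over 561 bases (7.8%). Some members not named here had overlaps too. KIF23 overlaps KIF23-AS1 over 231 bases (3.51%). Without strand, reads from these stretches cannot be told apart.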

How the data were processed

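RNA-seq was made from 3 libraries each of the 786-OFOXD1null and 786-O lines, as paired reads of 150 bases. The labels name a kit for mRNA, while the study's methods call the libraries total RNA. Per the study's methods, Trimmomatic 0.36 trimmed the reads, STAR 2.5.2b placed them on hg38 and featureCounts counted unique reads per gene; the sources used here give neither its annotation nor its strand setting. The deposited signal is counts divided by 1 size factor per library, so whole reads could be recovered: 100% of values were whole within 0.001 read. The deposited table also holds the log2 fold changes, p-values and mean differences of the authors' DESeq2 comparison of the lines, which were not used.

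Kinesins and all other genes were fitted together with limma 3.58.1 (under R 4.3.3, with a trended prior and no covariates) on log2(normalized count + 1) over 16901 genes with a mean of at least 10, with Benjamini-Hochberg adjustment and a threshold of 0.05; a fold change on this scale understates that of low genes. On simulated counts limma recovered 27 of 67 changes of 1.5-fold, 48 of 66 of 2-fold and 60 of 64 of 4-fold. It made 8 false calls there. Changes of the smallest size were thus often missed in the simulation. Far fewer genes were changed there than were called in the data. Each gene was drawn on its own, with no library that stood apart as FOXD1null library 1 does. The rates of recovery and of false calls may thus differ in the data. Alternatives were edgeR 4.0.16 and DESeq2 1.42.0 on the recovered reads, pseudocounts of 0.5 and 5, no filter, a mean of at least 50, equal library totals, a replicate block and leaving out each library. Gene names came from a table of Ensembl IDs (16747 of 16922 genes matched), positions and exon lengths from GENCODE 44 (hg38), and promoters from RefSeq (GRCh38.p14). Every kinesin could be named, and values per library were set for members that passed, for mitotic and transport members with a mean of at least 1000 and for KIF4A with KIF4B. Of each partner list the text names up to 3 of the largest rises and falls that passed and the direct partners of kinesins. The members and lists were chosen with earlier results of these data known.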

Additional observations from a re-analysis of the deposited data

How the results depend on the processing

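The count of 13 kinesins was 13 to 15 under both pseudocounts, both filters, edgeR, DESeq2 and equal library totals, with all 13 shared in each but equal totals, which shared 10. Leaving out 1 library gave 7 to 21 kinesins, 2 to 8 mitotic, 2 to 7 transport and 3 to 6 other kinesins, 2 to 11 mitotic partners, 4 to 12 transport partners, 3 to 16 dynein genes and 3621 to 9302 of all genes, the highest without FOXD1null library 1 in each. With equal library totals 6 mitotic partners and 5 transport partners passed. The log2 fold change changed sign with equal totals for KIFC1 (-0.018), KIF16B (-0.047), KIF5B (-0.00077), KLC1 (-0.088) and RACGAP1 (-0.087), and in edgeR for KLC1 (-0.0082) and RACGAP1 (-0.0072). Leaving out 1 library it ran from -0.18 to 0.021 for KIF15, from -0.040 to 0.22 for KIF9, from -0.12 to 0.086 for KIF1B, from -0.015 to 0.14 for KIF16B, from -0.033 to 0.035 for KLC1, from -0.075 to 0.0072 for KLC4 and from -0.011 to 0.020 for RACGAP1. None of these genes passed over all 6 libraries, and KIF5B and KIF16B passed without FOXD1null library 1. The cause was not tested. Samples that share a replicate number did not deviate together (correlations of -0.25, -0.23 and 0.01), so the number does not pair them; with the replicate block 9 kinesins passed, 2 of them mitotic (0 higher), 4 transport (2 higher) and 3 other. Counting KIF2A as mitotic left 4 mitotic calls, and counting KIF21A as transport gave 5 transport calls. At this depth changes of KIF5C and KIF4B, with means of 23.9 and 11.3 normalized counts in the FOXD1null libraries, could not be resolved.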
